A study of Mus musculus with 4 samples.

Results

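The matrix metalloproteinases (MMPs), the ADAMTS and ADAMTS-like proteins and the tissue inhibitors of metalloproteinases (TIMPs) were followed in 3T3-L1 cells at the start of adipocyte differentiation. Within these families the members were taken by gene symbol, as every non-control probe that the array files name as an Mmp, Adamts, Adamtsl or Timp gene with a number. This gave 81 probes of 48 genes, out of 41174 probes and 21377 named genes. They comprised 21 MMP genes, 18 ADAMTS genes, 5 ADAMTS-like genes and 4 TIMP genes, and 25 of the genes had more than 1 probe. The families themselves were picked with earlier results of these data known, so the shares of members called below are a description. Different probes of a gene read the same RNA sample and are not replicates.

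3T3-L1 is an established line of mouse preadipocytes. Confluent cells were induced with insulin, dexamethasone and IBMX and were harvested on day 2, in the early phase of differentiation. The 4 conditions were 0.1% DMSO, the solvent control, bilberry extract at 100 ug/ml, delphinidin at 100 nM and cyanidin at 100 nM, and the study's methods give the same final DMSO concentration in all media. Each condition was read on 1 Agilent one-colour array, with all 4 on the same slide and in the same scan. There is therefore no replicate, no p-value and no check of any difference against the spread between cultures, and having so few arrays limits the precision. The additives are plant products: bilberry is rich in anthocyanidins, of which delphinidin and cyanidin are a pair that differ in the hydroxyl groups of the B ring.

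MMPs are zinc proteases that cut collagens, gelatins, proteoglycans and other proteins of the extracellular matrix. They are made as inactive precursors, and the TIMPs bind and block the active enzymes. The ADAMTS proteases are secreted relatives with thrombospondin repeats that trim procollagens and cut large proteoglycans such as aggrecan and versican, whereas the ADAMTS-like proteins have the repeats but lack the protease domain. Differentiating fat cells replace the fibronectin and collagen matrix of the preadipocyte by one rich in basement membrane, and these families take part in that remodeling.

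Values below are scaled signals, that is, processed intensities in multiples of the array's 75th percentile, which was between 576 (bilberry) and 1016 (cyanidin). The probes with a value that the scanner software called well above background numbered 22783 to 24949 per array. No member spot was saturated. The median SD between replicate spots of a probe was 0.0326 to 0.0387 on the log2 scale, which covers the spots of an array only. A log2 ratio compares the same probe on a pair of arrays. Levels of different probes are not compared, but are summed over the markers of a cell type, with probes not well above background included. Where a probe was well above background on 1 array only, the ratio is a bound. It sets the bright signal against the dim array's lowest signal that counts as well above background, or against the probe's signal there if that is higher. Such values are written "at least". All ratios to DMSO share the DMSO array, so its deviations enter each of them. The spike-in control RNAs, unscaled, read 0.95 higher (log2) with bilberry than with DMSO, and the delphinidin and cyanidin arrays were within 0.03 of DMSO. Scaling to them moves every bilberry log2 ratio by -1.53, the delphinidin ratios by 0.26 and the cyanidin ratios by 0.24, so directions below are relative to the 75th percentile.

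Markers were read first as a check of the label, which calls the cells adipocytes. All 7 preadipocyte or fibroblast markers and all 7 adipocyte markers were well above background on all 4 arrays. Their summed scaled signals were 304 to 376 and 269 to 461. None of 4 endothelial markers was above background on any array. In this bulk RNA, fewer cells of a type and less RNA per cell cannot be told apart.

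Protease and inhibitor probes were detected at a share close to that of all probes. All 4 arrays detected 46 of the 81 probes (56.8%), against 52.1% of all probes, and no array detected 26 (32.1%), against 35.5%. All TIMP, gelatinase and COMP-cleaving ADAMTS probes were detected on every array. At the other end, the probes of matrilysin (Mmp7) and of the von Willebrand factor-cleaving protease Adamts13 were detected on none. No collagenase probe was detected on more than 1 array. Of the 48 genes, 35 had a probe above background on some array and 13 had none.

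**Figure D1:**
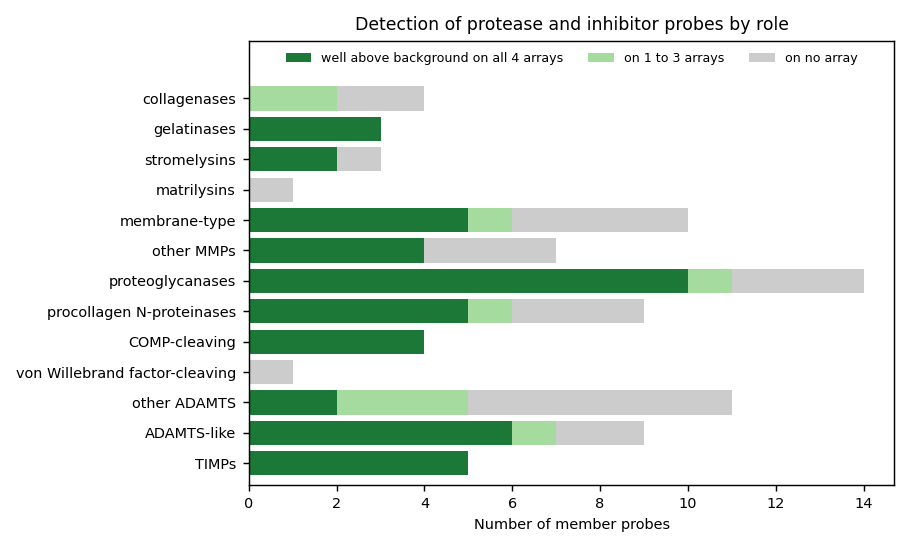
Number of member probes (horizontal axis) by role of the gene (vertical axis), split by whether the probe was well above background on all 4 arrays, on 1 to 3 or on none. All 5 TIMP probes were detected on all 4 arrays and none of the 4 collagenase probes was.

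A ratio over 2-fold in either direction, the study's own fold limit, was taken as a call. The detection filter and the bounds were added here, and the study's methods name neither. With bilberry, Adamts8, Mmp3, Timp2 and single probes of Adamts9 and Adamtsl5 were higher than with DMSO, and Timp3, Adamts6, Adamtsl3 and 1 probe of Adamts10 were lower. These were 6 probes higher of 52 that could be compared (11.5%), where 5.04% of all probes were higher, and 4 lower (7.69%), where 7.51% were lower. The share of lower members was thus near that of all probes. Either way, 10 member probes (19.2%) passed, against 12.5%. With normexp it was 4 of 52, against 5.31%. Scaling to the spike-in controls took all 6 higher probes out of the calls, as given with each gene below.

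With delphinidin, Adamts8 and Mmp3 were again the measured probes that were higher, and Mmp13 and 1 probe of Adamts18 came above background. One probe of Adamts10 and 1 of Adamts16 were lower. That is 5 probes higher of 53 (9.43%), against 1.62% of all probes, and 2 lower (3.77%), against 2.64%. Both directions together made 7 probes (13.2%), against 4.26%. Without a filter on detection it was 7 of 80 probes, near the 6.88% of all probes, and with normexp 3 of 53, against 1.58%.

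With cyanidin, both Adamts8 probes, Mmp3 and both Mmp9 probes were higher and 1 probe of Mmp1a came above background. Timp3, Adamtsl3 and single probes of Adamts10 and Adamts16 were lower. The counts were 6 probes higher of 53 (11.3%), against 1.11% of all probes, and 4 lower (7.55%), against 3.16%. Together they were 10 probes (18.9%), against 4.28%. With normexp 1 of 53 was left, a lower one, against 1.17%. Adamts8 and Mmp9 count with 2 probes each. Over the 4 comparisons made here, delphinidin against cyanidin included, 16 probes of 14 genes were called at least once. The same count was not made over all probes, so this number is not read as a property of the members.

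By the brightest probe of each gene and with the scaling to the 75th percentile, the families as a whole lay within 0.08 on the log2 scale of the rest of the array in each comparison. For bilberry the member gene median relative to all genes was 0.18 under quantile normalization, 0.16 over all member probes and 0.15 without a detection filter. The median log2 ratio over the member genes measured on both arrays, each by its brightest probe, was 0.21 for bilberry (29 genes), -0.01 for delphinidin (31 genes) and -0.02 for cyanidin (30 genes). Over all genes it was 0.16, -0.02 and 0.0. Of the probes measured on both arrays, those within 1.5-fold of DMSO were 29 of 47 for bilberry, 38 of 49 for delphinidin and 39 of 49 for cyanidin.

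**Figure D2:**
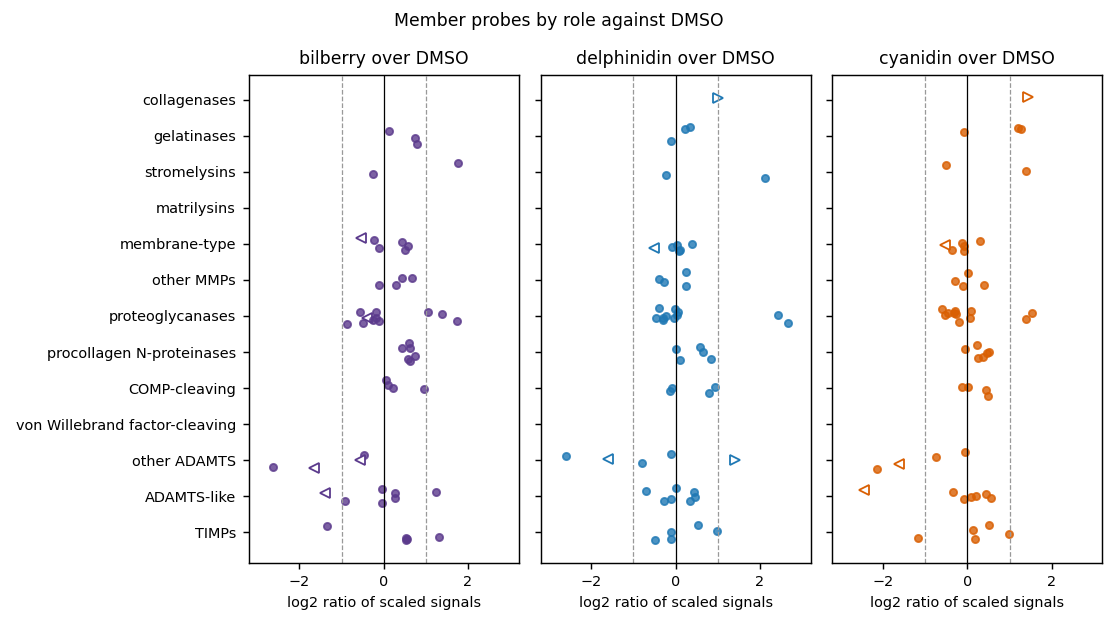
Log2 ratio of scaled signals to DMSO (horizontal axis) for each member probe by role (vertical axis), with 1 panel per treatment. Filled points were measured on both arrays, open triangles are bounds that point away from 0, and dashed lines mark 2-fold, past which lie 6, 5 and 6 higher probes and 4, 2 and 4 lower probes. Under spike-in scaling all bilberry points move by -1.53 and the higher bilberry calls end.

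Collagenases, stromelysins and further MMP genes stand in a run on chromosome 9. Its 9 probes on the array, for 8 genes, lie within 415 kb (chr9:7282762-7697370 of mm8). Stromelysin-1 (Mmp3), which cuts proteoglycans and activates other MMPs, was detected on all 4 arrays. A collagenase probe for Mmp13 was detected with delphinidin alone and 1 for Mmp1a with cyanidin alone. The other 6 probes were on no array above background.

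Promoters of several of these genes carry the AP-1 motif, the letters bound by Fos and Jun proteins. The motif TGAGTCA or its reverse complement TGACTCA was searched on the 300 bases from 250 before to 50 after each start site in RefSeq promoters of GRCm38.p6. It occurred in 1709 of 32851 promoters (5.2%). Of the member genes, 33 had a promoter in the table, with 36 promoters in all, of which 6 (16.7%) held the motif. The other member genes, Mmp9, Adamts8 and Mmp2 among them, have no entry there and were not searched. All 6 belong to the run on chromosome 9. They are shown because Mmp3, Mmp13 and Mmp1a are among the 4 MMP genes called, of which the other is Mmp9, each as 30 bases of the gene's strand with the motif in capitals. The windows are chr9:7445765-7445794 for Mmp3, chr9:7272468-7272497 for Mmp13, chr9:7464057-7464086 for Mmp1a, chr9:7502268-7502297 for Mmp10, chr9:7347319-7347348 for Mmp12 and chr9:7692016-7692045 for Mmp7, all on the plus strand of GRCm38.p6.
Mmp3: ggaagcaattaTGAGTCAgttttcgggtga
Mmp13: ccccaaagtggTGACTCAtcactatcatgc
Mmp1a: gttgtcaaccaTGAGTCAcatagcctctgg
Mmp10: tagcacccatgTGAGTCAtgcttagtgacc
Mmp12: gacatcaacagTGAGTCAgatagaggattt
Mmp7: aagtgtgcaaaTGAGTCAcctatttccaca
The motif begins 46 bases before the start site in Mmp3, 35 in Mmp13, 73 in Mmp1a, 63 in Mmp10, 44 in Mmp12 and 63 in Mmp7. The first 3 genes were detected on at least 1 array and the last 3 on none, so genes with the same letters were found among both. A match is a description of the sequence and not of binding.

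Mmp3 was lowest with DMSO and highest with delphinidin. Its only probe (chr9:7455751-7455810 of mm8) gave scaled signals of 0.03 for DMSO, 0.102 for bilberry, 0.131 for delphinidin and 0.0787 for cyanidin. All 3 treated arrays were thus above the control array. The ratio to DMSO was 3.41-fold with bilberry (log2 1.77, and 0.24 under spike-in scaling), 4.38-fold with delphinidin (log2 2.13) and 2.62-fold with cyanidin (log2 1.39). With normexp background correction, which adds a constant of 50 to every signal, the log2 ratios were 1.04, 1.00 and 0.51, and only the bilberry ratio was still called. Stromelysin-3 (Mmp11) is an MMP of stromal cells that is activated inside the cell. It gave 1.89 for DMSO, 1.58 for bilberry, 1.62 for delphinidin and 1.34 for cyanidin. No ratio of these scaled signals passed 2-fold, but the Mmp11 bilberry log2 ratio was -1.79 under spike-in scaling, lower past 2-fold.

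Mmp13, a collagenase that also cuts aggrecan, was close to the detection limit. Its probe (chr9:7282762-7282821 of mm8) gave 0.0305 with delphinidin and was not well above background with DMSO, bilberry or cyanidin. The delphinidin signal was at least 2.02-fold higher than with DMSO and at least 2.84-fold higher than with cyanidin. One Mmp1a probe (chr9:7475348-7475407) gave 0.041 with cyanidin and was not well above background on the other arrays. It was at least 2.72-fold higher than with DMSO. The other Mmp1a probe was above background on no array, so the gene's pair of probes did not behave alike. With normexp the bounds against DMSO were 1.15-fold for Mmp13 and 1.29-fold for Mmp1a, under the 2-fold limit.

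Of the gelatinases, which degrade denatured collagen and basement membrane collagen, Mmp9 was higher with cyanidin. Its probe with 10 spots on each array (chr2:164646325-164646384 of mm8) gave 0.0825 ± 0.00786 for DMSO, 0.137 ± 0.0156 for bilberry, 0.104 ± 0.00589 for delphinidin and 0.197 ± 0.00779 for cyanidin (mean ± SD over 10 spots, which measures the array and not the culture). The cyanidin spots, from 0.19 to 0.216, did not overlap the spots of any other array, and the highest DMSO spot was 0.0926. The second Mmp9 probe (chr2:164646008-164646067), spotted once, gave 0.086, 0.149, 0.101 and 0.199 in the same order of arrays. The order of the arrays was the same for both probes, with DMSO lowest and cyanidin highest. Log2 ratios to DMSO over these probes were 1.26 and 1.21 with cyanidin, 0.34 and 0.23 with delphinidin, and 0.73 and 0.79 with bilberry (-0.80 and -0.74 under spike-in scaling). With normexp the cyanidin ratios were 0.76 and 0.77 and were no longer called. Mmp2, the gelatinase of fibroblasts, gave 86.3 for DMSO, 93.5 for bilberry, 80.0 for delphinidin and 82.4 for cyanidin, and the values lay within 1.5-fold of each other. Its bilberry log2 ratio of 0.12 was -0.18 under quantile normalization and -1.41 under spike-in scaling, the latter lower past 2-fold.

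The membrane-type MMPs, which are anchored at the cell surface, had no call by the ratios of scaled signals. Mmp14, which activates the Mmp2 precursor and cuts pericellular collagen in fat tissue, gave 31.3 for DMSO, 26.9 for bilberry, 32.9 for delphinidin and 24.2 for cyanidin on its brighter probe. Its other probe gave 1.7, 1.57, 1.75 and 1.62. Over all membrane-type probes measured on both arrays, log2 ratios to DMSO ran from -0.22 to 0.58 with bilberry, from -0.09 to 0.39 with delphinidin and from -0.37 to 0.29 with cyanidin. The bilberry log2 ratios of the Mmp14 probes were -1.75 and -1.65 under spike-in scaling. Those of an Mmp17 probe and an Mmp24 probe were then -1.09 and -1.03, and all of these were lower past 2-fold. Of the remaining MMPs, Mmp19 gave 0.767 for DMSO, 0.704 for bilberry, 0.633 for delphinidin and 0.714 for cyanidin. Mmp23 gave 0.375, 0.462, 0.442 and 0.306. These ranges of scaled signals were narrow and no probe among them passed 2-fold. With spike-in scaling the bilberry log2 ratios were -1.65 for Mmp19 and -1.23 for Mmp23, both lower past 2-fold.

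Adamts8, a proteoglycanase that can cut aggrecan, gave the highest measured ratio to DMSO among the members with delphinidin and with cyanidin. Its brighter probe (chr9:30712200-30712259 of mm8) read 0.09 for DMSO, 0.3 for bilberry, 0.568 for delphinidin and 0.259 for cyanidin. Its other probe (chr9:30712141-30712200), which lies next to it, read 0.0273, 0.0711, 0.148 and 0.0717. Both were lowest with DMSO and highest with delphinidin, with bilberry and cyanidin close to each other. For the brighter probe the ratio to DMSO was 3.33-fold with bilberry, 6.31-fold with delphinidin and 2.87-fold with cyanidin. Under spike-in scaling the bilberry log2 ratio was 0.21 for the brighter probe and -0.15 for the other, so its sign depends on the scaling. With normexp, delphinidin was still past 2-fold on both probes (log2 1.97 and 1.10), bilberry on the brighter alone (1.27 and 0.71) and cyanidin on neither (0.99 and 0.45).

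The other proteoglycanases were read next. Adamts1, which cuts versican and aggrecan, read 78.3 for DMSO, 72.5 for bilberry, 66.8 for delphinidin and 63.5 for cyanidin on the brighter probe, and 7.05, 4.99, 5.71 and 6.07 on the other. Adamts4 (aggrecanase-1) read 0.496 for DMSO, 0.27 for bilberry, 0.362 for delphinidin and 0.344 for cyanidin. The brighter Adamts5 (aggrecanase-2) probe read 2.29, 1.55, 2.28 and 1.84. For Adamts4 DMSO was the highest of the 4 arrays, with log2 ratios of -0.88, -0.46 and -0.53, short of 2-fold with the scaling to the 75th percentile. The brighter Adamts5 probe was lowest with bilberry, at a log2 ratio of -0.56. Under spike-in scaling the bilberry log2 ratios were -2.41 for Adamts4, -2.08 for this Adamts5 probe and -2.03 and -1.64 for the Adamts1 probes, all lower past 2-fold. The probes of Adamts9, a protease of versican, did not behave alike. One (chr6:92891858-92891917 of mm8) read 0.337 for DMSO, 0.701 for bilberry, 0.344 for delphinidin and 0.281 for cyanidin, a log2 ratio of 1.06 with bilberry that was -0.47 under spike-in scaling and 0.94 with normexp. The brightest Adamts9 probe had log2 ratios of -0.19, 0.06 and 0.09, and the remaining one -0.25, -0.39 and -0.46.

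**Figure D3:**
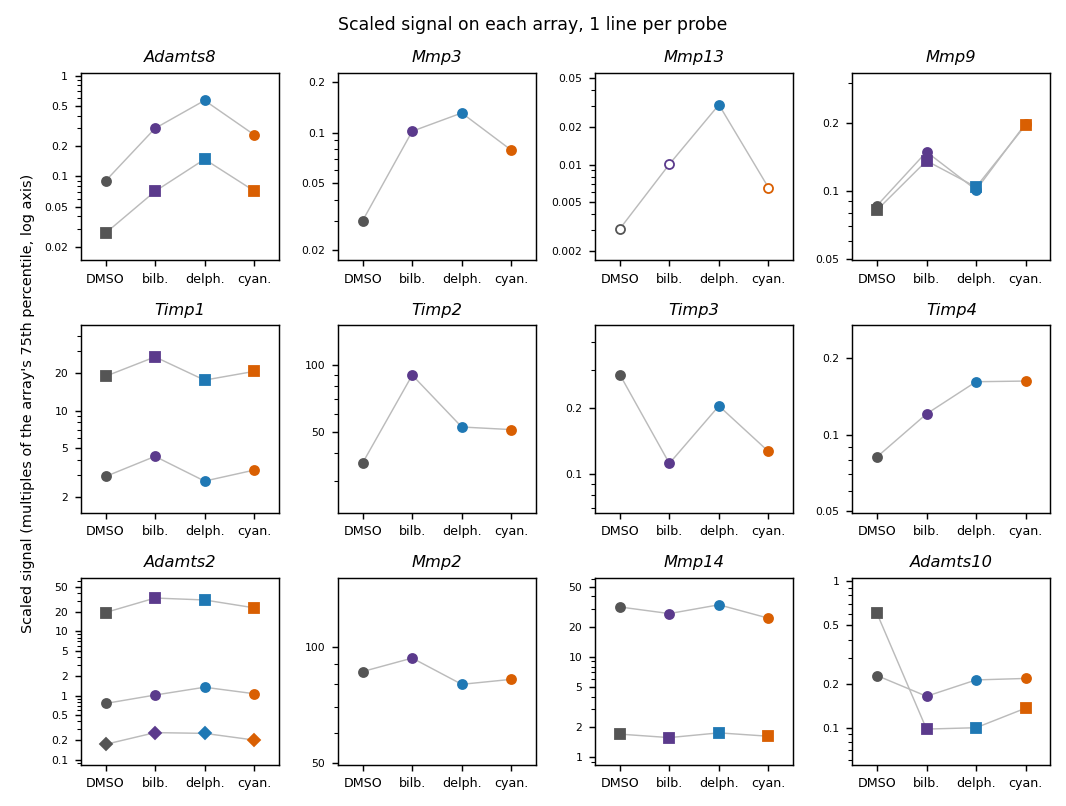
Scaled signal (vertical log axis, in multiples of the array's 75th percentile) on the DMSO, bilberry, delphinidin and cyanidin arrays for 12 genes, with a symbol shape and a line for each probe that had a value on all 4 arrays and was detected on at least 1, and open circles where it was not well above background. Adamts8 and Mmp3 were lowest with DMSO and highest with delphinidin (0.568 and 0.131), and Mmp9 was highest with cyanidin (0.199). Under spike-in scaling the bilberry points move down by 1.53 on the log2 scale (-1.53) against DMSO, and of the probes detected on both arrays only Mmp3 (0.24) and the brighter Adamts8 probe (0.21) stay above it.

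Among the procollagen N-proteinases, which remove the amino-terminal propeptide of fibrillar collagens, Adamts2 was measured by 4 probes. The brightest (chr11:50647393-50647452 of mm8) read 19.7 for DMSO, 33.1 for bilberry, 30.9 for delphinidin and 23.3 for cyanidin. DMSO was the lowest array on all 4 probes, and no probe passed 2-fold with the scaling to the 75th percentile. Their log2 ratios were 0.43 to 0.75 with bilberry (-1.10 to -0.78 under spike-in scaling) and 0.22 to 0.5 with cyanidin. With delphinidin they were 0.57 to 0.84 on the 3 probes with a value, 0.83 to 1.10 under spike-in scaling and 0.42 to 0.80 with normexp. Adamts12, which cuts the cartilage protein COMP, read 0.21 for DMSO, 0.243 for bilberry, 0.402 for delphinidin and 0.287 for cyanidin on one probe, and 0.155, 0.301, 0.267 and 0.217 on the other. DMSO was lowest on both probes, but the highest array was delphinidin on one and bilberry on the other. The log2 ratios nearest to 2-fold were 0.94 with delphinidin and 0.96 with bilberry, which was -0.57 under spike-in scaling. Under quantile normalization they were 1.02 and 1.09, past 2-fold. The delphinidin ratios of both probes passed it under spike-in scaling (1.20 and 1.05). With normexp these delphinidin ratios were 0.73 and 0.58, and the bilberry ratio of 0.96 was 0.84, all short of 2-fold. The bilberry log2 ratio of the probe that was highest with delphinidin was 0.21, and -1.32 under spike-in scaling, lower past 2-fold.

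Some ADAMTS genes were lower than with DMSO, each on 1 of its probes or on its only probe. An Adamts10 probe (mm8 chr17:33156263-33157178, an interval longer than those of the other Adamts10 probes) read 0.604 for DMSO, 0.0979 for bilberry, 0.1 for delphinidin and 0.136 for cyanidin. DMSO was 6.17-fold, 6.03-fold and 4.43-fold higher. A second Adamts10 probe (chr17:33159956-33160015) read 0.227, 0.164, 0.212 and 0.217, with log2 ratios of -0.47, -0.1 and -0.06, and the last was above background on no array. The probes of Adamts10, a protease of microfibrils, thus gave different answers, and the low reading rests on 1 probe.

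Adamts6 had 1 probe, with 0.0712 with DMSO, 0.0409 with delphinidin and 0.0424 with cyanidin, and no signal well above background with bilberry. DMSO was at least 3.17-fold higher than bilberry, whereas the log2 ratios were -0.8 with delphinidin and -0.75 with cyanidin. One Adamts16 probe was well above background with DMSO alone, at 0.033, at least 1.47-fold higher than bilberry, 3.06-fold higher than delphinidin and 3.07-fold higher than cyanidin. Its other probe was on no array above background. One Adamts18 probe was well above background with delphinidin alone, at 0.0398, at least 2.64-fold higher than DMSO, and its other probe on no array. With normexp the bounds against DMSO of Adamts6 with bilberry (1.13-fold), of Adamts16 (1.51-fold with delphinidin and 1.53-fold with cyanidin) and of Adamts18 (1.24-fold) were under 2-fold.

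Probes of the ADAMTS-like genes differed as well. One Adamtsl3 probe was above background on no array. The other read 0.0586 with DMSO and 0.0363 with delphinidin, and was not well above background with bilberry or cyanidin. DMSO was at least 2.61-fold higher than bilberry and at least 5.46-fold higher than cyanidin. With normexp these bounds were 1.08-fold and 1.81-fold. Adamtsl5 read 0.0417 for DMSO, 0.0975 for bilberry, 0.058 for delphinidin and 0.0609 for cyanidin on a dim probe, a bilberry log2 ratio of 1.23 that was -0.30 under spike-in scaling and 0.82 with normexp. Its other probes were both at -0.04 with bilberry.

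The TIMPs did not move together. Timp2, which inhibits most MMPs and helps Mmp14 activate Mmp2, was higher with bilberry. Its probe (chr11:118117922-118117981 of mm8) read 36.1 for DMSO, 89.8 for bilberry, 52.4 for delphinidin and 51.0 for cyanidin. DMSO was lowest, and the anthocyanidin arrays were near each other. The ratio to DMSO was 2.49-fold with bilberry (log2 1.31, but -0.22 under spike-in scaling), 1.45-fold with delphinidin and 1.41-fold with cyanidin. Timp3, a matrix-bound inhibitor that also blocks ADAM and ADAMTS proteases, was lower with bilberry and with cyanidin.

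The Timp3 probe (chr10:85778750-85778809 of mm8) read 0.285 for DMSO, 0.112 for bilberry, 0.205 for delphinidin and 0.127 for cyanidin. DMSO was highest, 2.54-fold over bilberry, 1.39-fold over delphinidin and 2.24-fold over cyanidin. The cyanidin log2 ratio of -1.17 was -0.92 under spike-in scaling and -0.92 with normexp, and the bilberry ratio of -1.35 was -0.80 with normexp, all short of 2-fold. Timp4 read 0.0819 for DMSO, 0.121 for bilberry, 0.162 for delphinidin and 0.163 for cyanidin. The bilberry log2 ratio was 0.56, and -0.97 under spike-in scaling. Its log2 ratios of 0.98 with delphinidin and 0.99 with cyanidin lay just short of 2-fold and passed it under quantile normalization (1.10 and 1.14) and spike-in scaling (1.24 and 1.23). With normexp these Timp4 ratios were 0.56 with delphinidin and 0.56 with cyanidin. Timp1 read 18.9 for DMSO, 27.1 for bilberry, 17.6 for delphinidin and 20.7 for cyanidin on its brighter probe, and 2.93, 4.26, 2.69 and 3.3 on the other. Both Timp1 probes were highest with bilberry, at log2 0.52 and 0.54, short of 2-fold. Under spike-in scaling these were -1.01 and -0.99, so that the brighter probe was then lower past 2-fold.

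Delphinidin and cyanidin, which differ by a hydroxyl group on the B ring, were compared directly at the same dose and day, as the only pair of related compounds. With 1 array each, the difference has no test and no interval. Higher with delphinidin were Adamts8 on both probes, Mmp13, and single probes of Adamts18 and Adamtsl3, and lower was 1 probe of Mmp1a. These were 5 probes higher of 52 (9.62%), where 1.43% of all probes were higher, and 1 lower (1.92%), where 1.16% were lower. In either direction it was 6 probes (11.5%), against 2.59%. Without a filter on detection it was 7 of 80, near the 6.36% of all probes. Adamts8 was 2.19-fold and 2.07-fold higher with delphinidin on its probes (log2 1.13 and 1.05). The latter was 0.99 under quantile normalization, and with normexp they were 0.98 and 0.64. Adamts18 was at least 3.71-fold and Adamtsl3 at least 3.38-fold higher with delphinidin, and Mmp1a at least 3.81-fold higher with cyanidin, each by a probe that was not well above background on the dimmer array. With normexp none of the 6 probes passed 2-fold.

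Both Mmp9 probes read more with cyanidin than with delphinidin, by 1.97-fold on the probe spotted once, which is just short of the limit (log2 -0.98 and -0.91 for delphinidin over cyanidin). Mmp3 was 1.67-fold higher with delphinidin and Timp3 had a log2 ratio of 0.69. Of 48 probes measured on both arrays, 42 were within 1.5-fold, among them Timp2 (log2 0.04), Timp4 (-0.01) and Mmp2 (-0.04). With the 4 bounds counted, 10 of 52 member probes were past 1.5-fold, against 6.78% of all probes. The median over 30 member genes was 0.05, against -0.03 over all genes.

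**Figure D4:**
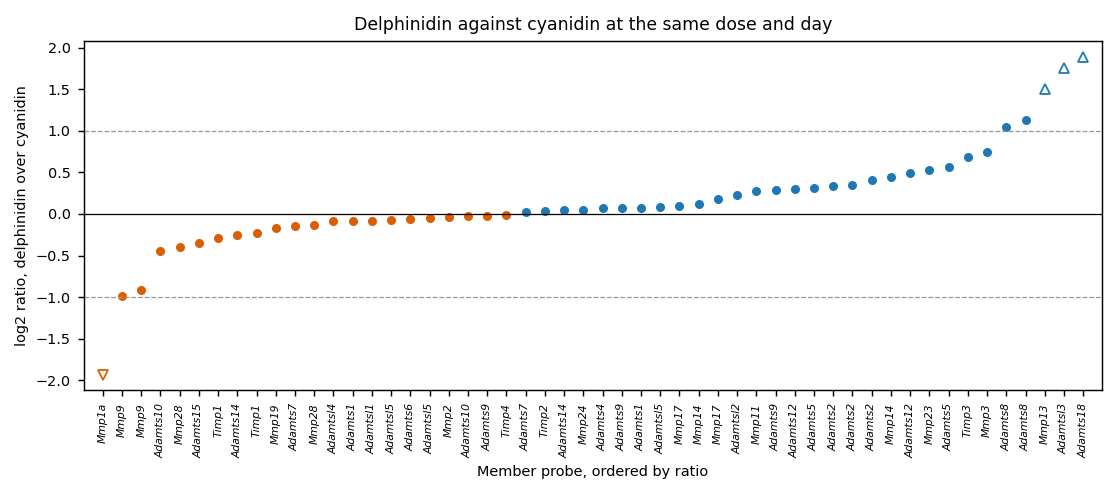
Log2 ratio of scaled signals, delphinidin over cyanidin (vertical axis), for each member probe that was detected on at least 1 of the arrays, ordered by the ratio (horizontal axis, labelled by gene). Points were measured on both arrays, open triangles are bounds and dashed lines mark 2-fold. Of the points 42 of 48 lie within 1.5-fold, with the Adamts8 probes at 1.13 and 1.05 and the Mmp9 probes at -0.98 and -0.91.

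The other genes of the pathway were read from lists by function. Of 23 activators and inhibitors of matrix proteases, such as the plasminogen activators, the serpins and Reck, 12 were above background on all 4 arrays. None of 13 passed 2-fold with bilberry, 1 of 16 was higher with delphinidin (1.62% of all probes) and none of 14 passed with cyanidin. The 1 gene was Pcsk5, a proprotein convertase, which read 0.0598 with delphinidin and was not well above background elsewhere. It was at least 3.96-fold higher than with DMSO (1.58-fold with normexp).

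Among the matrix substrates, 3 of 16 were lower with bilberry, as were 7.51% of all probes, and none passed 2-fold with delphinidin or cyanidin. Decorin and lumican, proteoglycans that bind collagen fibrils, were among the 3. Dcn read 56.3 for DMSO, 19.6 for bilberry, 30.8 for delphinidin and 37.4 for cyanidin, and Lum read 5.96, 1.64, 3.04 and 3.44. Both were highest with DMSO and lowest with bilberry, with bilberry log2 ratios of -1.52 and -1.86. Of the same class of small leucine-rich proteoglycans, Bgn had a bilberry log2 ratio of 0.41 and Fmod of 0.68, which the spike-in shift of -1.53 takes below 0. Versican (Vcan), a substrate of several ADAMTS proteases, read 26.4, 11.4, 19.5 and 22.9, a log2 ratio of -1.2. The median log2 ratio over the substrates was -0.42 for bilberry, -0.21 for delphinidin and -0.26 for cyanidin, against 0.16, -0.02 and 0.0 over all genes.

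Many proteins of the ADAM family shed other proteins from the cell surface. Of the listed ADAM genes, 2 of 10 were lower with bilberry and 1 each with delphinidin and cyanidin. Among all probes 7.51%, 2.64% and 3.16% were lower. Adam10 read 0.38 for DMSO, 0.166 for bilberry, 0.323 for delphinidin and 0.214 for cyanidin, a log2 ratio of -1.2 with bilberry that was -0.70 with normexp. Adam33 read 0.106 with DMSO, 0.0454 with delphinidin and 0.0427 with cyanidin and was not well above background with bilberry. Its log2 ratios were -1.32 for cyanidin and -1.23 for delphinidin, the latter -0.97 with the spike-in scaling. With normexp they were -0.81 and -0.77, both short of 2-fold. DMSO was at least 4.73-fold higher than bilberry (1.51-fold with normexp).

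Among 13 genes of the AP-1 and ETS families, transcription factors known for MMP promoters, 2 were higher with bilberry, 1 with delphinidin and 1 with cyanidin, where 5.04%, 1.62% and 1.11% of all probes were higher. Etv4 read 0.0831 for DMSO, 0.367 for bilberry, 0.267 for delphinidin and 0.252 for cyanidin, so that DMSO was lowest. Its log2 ratios were 1.68 for delphinidin, 1.6 for cyanidin and 2.14 for bilberry, the last of which was 0.61 with the spike-in scaling. Etv5 was not well above background with DMSO and was at least 2.52-fold higher with bilberry, which was at least 1.78-fold with normexp and gave no fold under spike-in scaling, where the log2 bound was -0.20. No Fos or Jun family gene passed 2-fold in any comparison. Jun read 3.94, 4.81, 3.16 and 3.33, and Fosl1 read 4.4, 5.47, 5.23 and 4.91.

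Markers of other cell types were read beside these results. Of 4 epithelial markers, no array had Epcam, Cdh1 or Krt18 well above background, and Krt8 read 0.0256 for DMSO, 0.0574 for bilberry, 0.0892 for delphinidin and 0.0534 for cyanidin. Krt8 was thus lowest with DMSO and highest with delphinidin, as were Adamts8 and Mmp3. It passed 2-fold against DMSO in each comparison, with log2 ratios of 1.17 for bilberry (-0.36 under spike-in scaling), 1.8 for delphinidin and 1.06 for cyanidin, where 5.04%, 1.62% and 1.11% of all probes were higher. With normexp the Krt8 log2 ratios were 0.63 for bilberry, 0.60 for delphinidin and 0.17 for cyanidin, all short of 2-fold. The summed epithelial signal was 0.0388 to 0.102. Of 6 macrophage or leukocyte markers, 3 were above background on all 4 arrays and 3 on none, Ptprc among the latter, and their sum was 0.173 to 0.196. Csf1r alone passed 2-fold, 1 of 3 where 5.04% of all probes were higher, with a log2 ratio of 1.16 with bilberry that was -0.37 under spike-in scaling and 0.72 with normexp. Of 7 preadipocyte or fibroblast markers 1, Thy1 (log2 -1.2), was lower with bilberry, with a list median of -0.02 and a summed signal of 376 for bilberry and 372 for DMSO. Of 7 adipocyte markers 1, Adipoq (-1.07, and -0.97 with normexp), was lower, with a list median of 0.02. Of all probes 7.51% were lower with bilberry. The summed adipocyte signal was 269 for bilberry and 390 for DMSO, of which Fabp4 made up 137 and 265. The 3 chondrocyte markers, among them the ADAMTS substrate Acan, summed to 6.9 to 8.12, and 1 of 3 muscle markers was detected on all 4 arrays. The part of any of these in the protease values was not tested.

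Place on the array was also read. Of the member probes, 33 of 81 (40.7%) lay in the band of array rows that was left out as an alternative, against 43.4% of all probes spotted once. Of the 16 called probes, 4 (25%) lay there, namely those of Mmp3, Timp2, Mmp1a and Adamts10. With that band left out, the calls against DMSO numbered 7 of 26 probes for bilberry, 5 of 27 for delphinidin and 7 of 26 for cyanidin, against 11.6%, 2.65% and 2.61% of all probes.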

How the data were processed

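RNA was labeled with Cy3 and hybridized to Agilent Whole Mouse Genome arrays by the authors, who deposited the output of Feature Extraction (version 9.5.1.1 per the file headers). The deposited unit is an intensity per spot, already background-subtracted and detrended by that software. A deposited table of the series holds the same intensity values (largest relative difference 0). Here control spots and spots marked as outliers were left out, which removed 2 member spots, each signal was divided by its array's 75th percentile and converted to log2, and spots of a probe were averaged. Probes were named from the files, and 24375 through accessions matched to RefSeq of GRCm38.p6. Probe coordinates are the files' own (mm8, not converted), which do not state exon or intron. Motifs were searched in RefSeq promoters.

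A call was a ratio over 2-fold between a pair of arrays, with the probe well above background on both, or a bound over 2-fold. The families that set the members, the motifs, the roles and the lists were chosen with earlier results of these data known. Values on all arrays are given for genes with a called probe, the TIMPs and a set of well-known MMP and ADAMTS genes. Signals not well above background are not printed singly, but they enter the sums over marker lists. Listed genes past 2-fold have values as well, except Thy1, Adipoq and Csf1r (ratios only) and Etv5 (a bound). Some listed genes (Pcsk5, Etv5, the Fos and Jun family genes and further marker genes) were named after their values were seen. Alternatives were other scalings, normexp with an offset of 50, filters, fold limits, marked spots kept, the deposited table and a band of rows left out. The calculations were tested on simulated data. Python 3.11.15, numpy 2.4.6, pandas 2.3.3, matplotlib 3.10.9, R 4.3.3 and limma 3.58.1 were used.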

Additional observations from a re-analysis of the deposited data

How the results depend on the processing

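The member probes called against DMSO numbered 10 with bilberry, 7 with delphinidin and 10 with cyanidin, and 6 between delphinidin and cyanidin. Scaling to the spike-in controls gave 33 with bilberry, all of them lower, where 78.2% of all probes were called, and 11 for delphinidin (4.61% of all probes). Of 19 named probes with a bilberry ratio above 0 it turned 17 below 0. Among those called it turned the log2 ratio of the dimmer Adamts8 probe to -0.15, of 1 Adamts9 probe to -0.47, of 1 Adamtsl5 probe to -0.30 and of Timp2 to -0.22. With normexp the 4 counts were 4, 3, 1 and 0, against 5.31%, 1.58%, 1.17% and 0.691% of all probes. This setting changes the background correction and adds an offset of 50, and which of these moved the counts was not tested. The cyanidin count with normexp, 1 of 53 and none higher, was near the share of all probes. Without a filter on detection the bilberry count was 16 of 80 (13.9% of all probes), the delphinidin count 7 of 80 (6.88%), the cyanidin count 13 of 81 (7.37%) and the count between the anthocyanidins 7 of 80 (6.36%), so that with delphinidin and between the anthocyanidins the members were near all probes. Probes detected on all 4 arrays gave 4 of 46 with delphinidin (2.4%) and 2 of 46 between the anthocyanidins (0.802%). A limit of 1.5-fold gave 20 of 52 with bilberry, near the 34.1% of all probes, 14 of 53 with delphinidin (12.8%) and 10 of 52 between the anthocyanidins (6.78%). A limit of 3-fold gave 4 with bilberry (3.86%), 3 with cyanidin, all lower (1.47%), and 3 between the anthocyanidins (1.41%). The remaining counts lay within 1.5 times of those first given. The member median less that of all genes moved under each alternative by less than the median SD between probes of a gene, the limit set for it, and ranged from 0.04 to 0.18 with bilberry. Quantile normalization gave no value for the Adamts2 probe left out on the delphinidin array. Signal over background limits the dim members, of which 26 probes were detected on no array. No paired analysis was possible because each condition had 1 array.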
